A study of Bos taurus with 56 samples.

Results

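The tricarboxylic acid (TCA) cycle and the reactions that refill it were examined in the oviduct epithelium through 31 listed gene symbols, of which 28 were found among the 31903 genes of the deposited count table and 3 are not analysed here. The members were chosen by symbol and not by their values, though with earlier results of these data known. Epithelial cells had been scraped from the ampulla and the isthmus, on the side ipsilateral and the side contralateral to the corpus luteum (CL), and their total RNA was sequenced. The animals were Holstein females: 5 nulliparous heifers, 5 non-lactating cows that were dried off at calving and never milked, and 4 lactating cows, the cows being primiparous and at about 60 days post-partum. All animals, heifers included, had their oestrus synchronised with an intravaginal progesterone device, a prostaglandin F2 alpha analogue and buserelin, and were slaughtered on Day 3 after oestrus without insemination. The design gave 12 conditions and 56 libraries, a single library per animal and tissue. The questions were whether these genes differed between the sides, between the regions and between the metabolic groups.

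In the TCA cycle, acetyl-CoA from pyruvate or fatty acids joins oxaloacetate to form citrate, which is oxidised step by step back to oxaloacetate while reduced coenzymes are passed to the respiratory chain. Intermediates leave the cycle for the synthesis of lipid, glucose and amino acids, and anaplerosis replaces them, from pyruvate through pyruvate carboxylase or from glutamate through glutamate dehydrogenase and the transaminases. The oviduct epithelium holds ciliated and secretory cells, and it lines the tube in which the gametes meet in the ampulla and through which the early embryo passes along the isthmus.

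The libraries held 1901454 to 6836850 counts on genes (median 4931502.5), of which the members took 0.174 to 0.318% (median 0.208%). Levels are given as CPM, counts scaled to a common library size by TMM over all libraries. Defining markers of ciliated, secretory and epithelial cells had counts in every library, with FOXJ1 at 150 to 441 CPM, PAX8 at 88.3 to 154 CPM and EPCAM at 165 to 518 CPM. Markers of other cells were present too. Of the 7 smooth muscle markers CNN1, TAGLN and ACTG2 were at 0 in 44, 45 and 35 of the 56 libraries and MYH11 in 5, whereas ACTA2, DES and MYLK had counts in all and MYLK reached 129 CPM. Of the 5 macrophage markers CD163 was at 0 in 10 libraries and the other 4 in none, and the 4 endothelial markers had counts in all. The hemoglobin genes HBA and HBB were at 0 in all 56. In bulk RNA, fewer cells of a type and less RNA per cell cannot be told apart. Of the ipsilateral ampulla libraries 4 stood apart. The library of heifer B was closer to non-lactating cow B (correlation 0.869) than to its own animal (0.305), and that of non-lactating cow B closer to heifer B (0.802) than to its own (0.323), over the 200 genes that separated animals best. A library of the non-lactating group carried the number of lactating cow B and resembled non-lactating cow C (0.768), and a library of the lactating group carried the number of non-lactating cow C and resembled lactating cow B (0.796). All 4 entered the group that their column name gives. For comparisons averaged over groups, the counts of members called that rest on them are given with and without them. No isthmus library was among them.

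All members other than OGDHL and ME3 had counts in every library. OGDHL, a paralog of the OGDH subunit, had at most 4 counts in a library and 0 in 46 of 56, and it was not tested. ME3, the mitochondrial NADP-dependent malic enzyme, had at most 34 counts and 0 in 14 libraries. Its level lay in the isthmus, with 456 counts over 28 libraries, against 41 counts over the 28 ampulla libraries. The summed level of the 28 members was highest in the ipsilateral isthmus of heifers, at 2494 to 3253 CPM (median 2867), and that range did not overlap the 1880 to 2322 CPM (median 2038) of their contralateral isthmus. In the other conditions the medians lay between 1966 CPM in the contralateral ampulla of heifers and 2421 CPM in non-lactating cows' ipsilateral isthmus. The isthmus sides did not overlap in the cows either, at 2167 to 2665 CPM ipsilaterally against 1905 to 2058 CPM in non-lactating cows. In lactating cows they were at 2312 to 2492 CPM against 1733 to 2065 CPM. The sum weighs abundant members most and does not stand for each member. In the ipsilateral isthmus GLUD1 had a mean of 507 CPM in heifers against 262 and 280 CPM in non-lactating and lactating cows. ME2 went the other way there, at 95.2 CPM in heifers against 142 CPM in each cow group. No member was called between metabolic groups by edgeR, as given below. Alignments to several places were not counted, so a member with a near-identical copy elsewhere could be under-counted, which was not tested.

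In the isthmus the genes of the TCA cycle were higher on the side of the CL. Averaged over the 3 metabolic groups, 19 of 27 tested members were differentially expressed at an adjusted p under 0.05 (edgeR, quasi-likelihood test, adjusted over all genes), and all 19 were higher ipsilaterally. Of all genes tested 27.2% were called and 14.3% were called higher. The median log2 fold change was 0.33 over the members and -0.015 over all genes. Of the 13 mitochondrial cycle enzymes and subunits tested, 12 were called, the exception being IDH3G. The difference was largest at OGDH and GLUD1, which use and supply alpha-ketoglutarate.

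**Figure D1:**
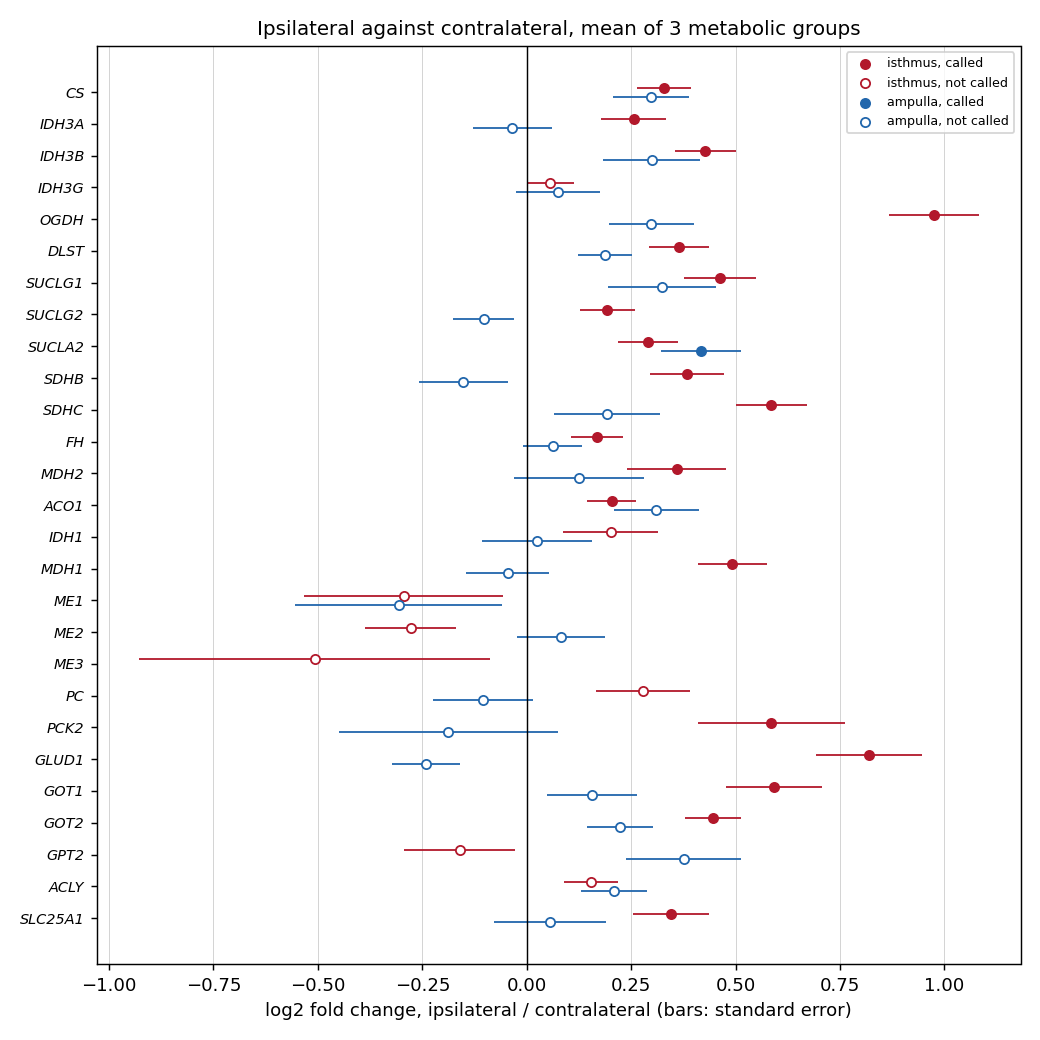
Log2 fold change of each tested member between the ipsilateral and contralateral side, averaged over the 3 metabolic groups, with its standard error, in the isthmus (red) and the ampulla (blue). Filled points were called at an adjusted p under 0.05. In the isthmus 19 of 27 members were called and all lay above 0, whereas in the ampulla only SUCLA2 was called of 26 tested, ME3 not being tested there.

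OGDH encodes the E1 subunit of the alpha-ketoglutarate dehydrogenase complex, which makes succinyl-CoA and is a controlled step of the cycle. In the isthmus of heifers A to E its level was 289, 253, 230, 176 and 224 CPM ipsilaterally and 98.9, 121, 134, 108 and 65.7 CPM contralaterally. In non-lactating cows A to E it was 161, 138, 142, 136 and 168 CPM against 88.1, 78.7, 70.0, 87.1 and 77.7 CPM, and in lactating cows A to D it was 115, 161, 141 and 161 CPM against 97.8, 99.4, 47.7 and 61.8 CPM. The sides did not overlap in any of the 3 groups, and the heifers were the highest on the ipsilateral side. Members whose ranges are compared here and below were picked by differences in these same data. Ranges that lie apart are thus no further result, and overlap over all genes was not counted. The ipsilateral mean was 178 CPM and the contralateral mean 88.3 CPM over 14 animals each, a fitted difference of 1.97-fold (log2 fold change 0.97 ± 0.107 SE, adjusted p = 5.61e-07). OGDH was higher ipsilaterally in 14 of 14 animals, by 0.23 to 1.76 on the log2 scale. It was the only member called both in heifers and in non-lactating cows.

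GLUD1, the mitochondrial glutamate dehydrogenase that interconverts glutamate and alpha-ketoglutarate, had the second largest difference among the members called. In the isthmus of heifers A to E it stood at 545, 461, 689, 371 and 466 CPM ipsilaterally and at 228, 223, 345, 203 and 161 CPM contralaterally. In non-lactating cows A to E the levels were 375, 196, 297, 203 and 240 CPM against 204, 107, 225, 172 and 158 CPM, and in lactating cows A to D they were 266, 320, 271 and 264 CPM against 222, 169, 125 and 140 CPM. The sides did not overlap in heifers and lactating cows and overlapped in non-lactating cows. The mean was 355 CPM ipsilaterally and 192 CPM contralaterally (log2 fold change 0.82 ± 0.127 SE, adjusted p = 3.38e-05), with the ipsilateral library higher in 14 of 14 animals.

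The entry to the cycle moved less. Citrate synthase, CS, which condenses acetyl-CoA with oxaloacetate, was 65.3 CPM ipsilaterally and 51.4 CPM contralaterally (log2 fold change 0.33 ± 0.065 SE, adjusted p = 4.66e-04), higher in 14 of 14 animals. Of the 3 subunits of the NAD-dependent isocitrate dehydrogenase, IDH3B rose by 0.43 and IDH3A by 0.26 on the log2 scale (adjusted p = 1.06e-04 and 0.0147), whereas IDH3G was at 41.5 and 39.8 CPM (log2 fold change 0.056 ± 0.056 SE, adjusted p = 0.497). The subunits of this enzyme thus did not pass the test together.

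All 5 members between alpha-ketoglutarate and succinate were called. DLST, the E2 subunit of the complex that holds OGDH, was 94.8 CPM against 73.0 CPM (log2 fold change 0.36 ± 0.072 SE, adjusted p = 5.04e-04) and was higher ipsilaterally in 14 of 14 animals. Succinyl-CoA synthetase pairs the alpha subunit SUCLG1 with an ADP-forming beta subunit, SUCLA2, or a GDP-forming beta subunit, SUCLG2. SUCLG1 rose by 0.46, SUCLA2 by 0.29 and SUCLG2 by 0.19 on the log2 scale (adjusted p = 2.42e-04, 0.00376 and 0.0299).

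All 4 members between succinate and oxaloacetate were called too. SDHC, a membrane anchor of succinate dehydrogenase, was 30.0 CPM ipsilaterally and 19.9 CPM contralaterally (log2 fold change 0.59 ± 0.085 SE, adjusted p = 1.66e-05) and was higher in 14 of 14 animals. SDHB, the iron-sulphur subunit, rose by 0.38 on the log2 scale (adjusted p = 0.00207). The mitochondrial malate dehydrogenase MDH2 rose by 0.36 (adjusted p = 0.0254) and fumarase, FH, by 0.17 (adjusted p = 0.0465). With library totals in place of TMM, FH and SUCLG2 had adjusted p of 0.110 and 0.0607, and without a filter on low counts FH was at 0.0633. FH also lost its call without heifer A, B or C, lactating cow A or C, or non-lactating cow B, C or D (adjusted p up to 0.0991), SUCLG2 without heifer C, lactating cow A or D, or non-lactating cow C or D (up to 0.0769), and MDH2 without lactating cow D or non-lactating cow C or D (up to 0.0679).

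The malate-aspartate shuttle carries reducing equivalents into mitochondria. Of its enzymes, the cytosolic GOT1 and mitochondrial GOT2, which exchange aspartate and oxaloacetate with glutamate and alpha-ketoglutarate, rose by 0.59 and 0.45 on the log2 scale (adjusted p = 4.00e-04 and 2.44e-05). The cytosolic malate dehydrogenase MDH1 rose by 0.49 (adjusted p = 8.80e-05). Of the shuttle's carriers, which are no members, SLC25A12 was not called (log2 fold change -0.087 ± 0.092 SE, adjusted p = 0.525). SLC25A11, which exchanges malate and alpha-ketoglutarate, was called higher ipsilaterally, with its value among the neighbouring genes below. GOT2 was higher ipsilaterally in 14 of 14 animals, and GOT1 and MDH1 in 13. GPT2, the mitochondrial alanine transaminase, was not called, at 55.5 CPM against 61.3 CPM (log2 fold change -0.16 ± 0.133 SE, adjusted p = 0.401), and was higher in 4 of 14 animals.

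Of the members that exchange the cycle's intermediates with pyruvate or phosphoenolpyruvate, PCK2 alone was called. PCK2, the mitochondrial form of phosphoenolpyruvate carboxykinase, draws on oxaloacetate and was 11.8 CPM ipsilaterally and 7.60 CPM contralaterally (log2 fold change 0.59 ± 0.176 SE, adjusted p = 0.0146). PC, pyruvate carboxylase, was 40.0 CPM against 32.6 CPM (log2 fold change 0.28 ± 0.113 SE, adjusted p = 0.0675). The malic enzymes convert malate to pyruvate, and none of the 3 was called. ME1, ME2 and ME3 had log2 fold changes of -0.29 ± 0.239, -0.28 ± 0.109 and -0.51 ± 0.420 SE (adjusted p = 0.392, 0.0600 and 0.402). The ipsilateral library was the higher in 3 of 14 animals for ME1 and ME2 and in 6 of 14 for ME3.

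Of the members that act in the cytosol or carry citrate to it, ACO1, the cytosolic aconitase that is also an iron regulatory protein, rose by 0.20 on the log2 scale (adjusted p = 0.0109), and SLC25A1, the citrate carrier of the inner membrane, rose by 0.35 (adjusted p = 0.00574). The cytosolic NADP-dependent IDH1 had a log2 fold change of 0.20 ± 0.113 SE (adjusted p = 0.195). ACLY, which splits exported citrate to acetyl-CoA, had a log2 fold change of 0.15 ± 0.064 SE (adjusted p = 0.0779).

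Each metabolic group was also tested alone, on the same isthmus libraries. The shares of all genes set beside the counts belong to the unpaired edgeR fits and not to the alternatives. In heifers 6 of 27 members were called and all were higher ipsilaterally, where 10% of all genes were called and 5.71% were called higher. These were OGDH (log2 fold change 1.13), GLUD1 (1.10), MDH1 (0.82), GOT1 (0.72), SUCLG1 (0.71) and GOT2 (0.47). MDH1 ranged from 61.0 to 82.7 CPM ipsilaterally (median 65.4) and from 35.9 to 42.9 CPM contralaterally (median 38.4), and SUCLG1 from 57.2 to 69.8 CPM (median 66.9) and from 29.7 to 46.7 CPM (median 38.7). The sides did not overlap for 5 of the 6, the exception being GOT1. Since these members were picked by their call this is no further result, and overlap over all genes was not counted. With the animal as a block 10 members were called, and without heifer E 3 were called, SUCLG1, GOT1 and GOT2 being lost. GOT2 also lost its call without heifer A, B or D and GOT1 without heifer A or B (adjusted p up to 0.107).

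In non-lactating cows 3 of 27 members were called, all higher ipsilaterally, where 5.11% of all genes were called. These were OGDH (log2 fold change 0.88 ± 0.106 SE, adjusted p = 0.00163), SDHC (0.66 ± 0.144 SE, adjusted p = 0.0223) and DLST (0.51 ± 0.112 SE, adjusted p = 0.0240). The sides did not overlap for any of the 3, which were again picked by their call. Without cow A, B, C or E, 1 member was called. DESeq2 called 6 members and so did a fit of all isthmus libraries together.

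In lactating cows 0 of 27 members were called by edgeR, where 0.187% of all genes were called. At an unadjusted p under 0.05 were 13 members, and 12.2% of all genes. The median log2 fold change of the members was 0.31, beside 0.31 in heifers and 0.30 in non-lactating cows. The members with the smallest p were IDH3B (log2 fold change 0.56 ± 0.122 SE, adjusted p = 0.115), GLUD1 (0.77 ± 0.172 SE, adjusted p = 0.116) and OGDH (0.915 ± 0.230 SE, adjusted p = 0.146). With the animal as a block, GLUD1 and OGDH were called (adjusted p = 0.0286 and 0.0453). DESeq2 called 4 members and the fit of all isthmus libraries together called 3.

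The difference in side effect between the groups was tested itself, and 0 of 27 members were called by edgeR (0% of 15031 genes). The likelihood ratio test of DESeq2 called 0 too. In edgeR 1 member had an unadjusted p under 0.05, as had 2.05% of all genes. That member was MDH1, whose side effect was smaller by 0.59 in non-lactating cows and by 0.40 in lactating cows than in heifers on the log2 scale (edgeR, adjusted p = 1). OGDH had side effects that differed from the heifers' by -0.24 and -0.22 (edgeR, adjusted p = 1). GLUD1 had differences of -0.51 and -0.33 (edgeR, adjusted p = 1).

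**Figure D2:**
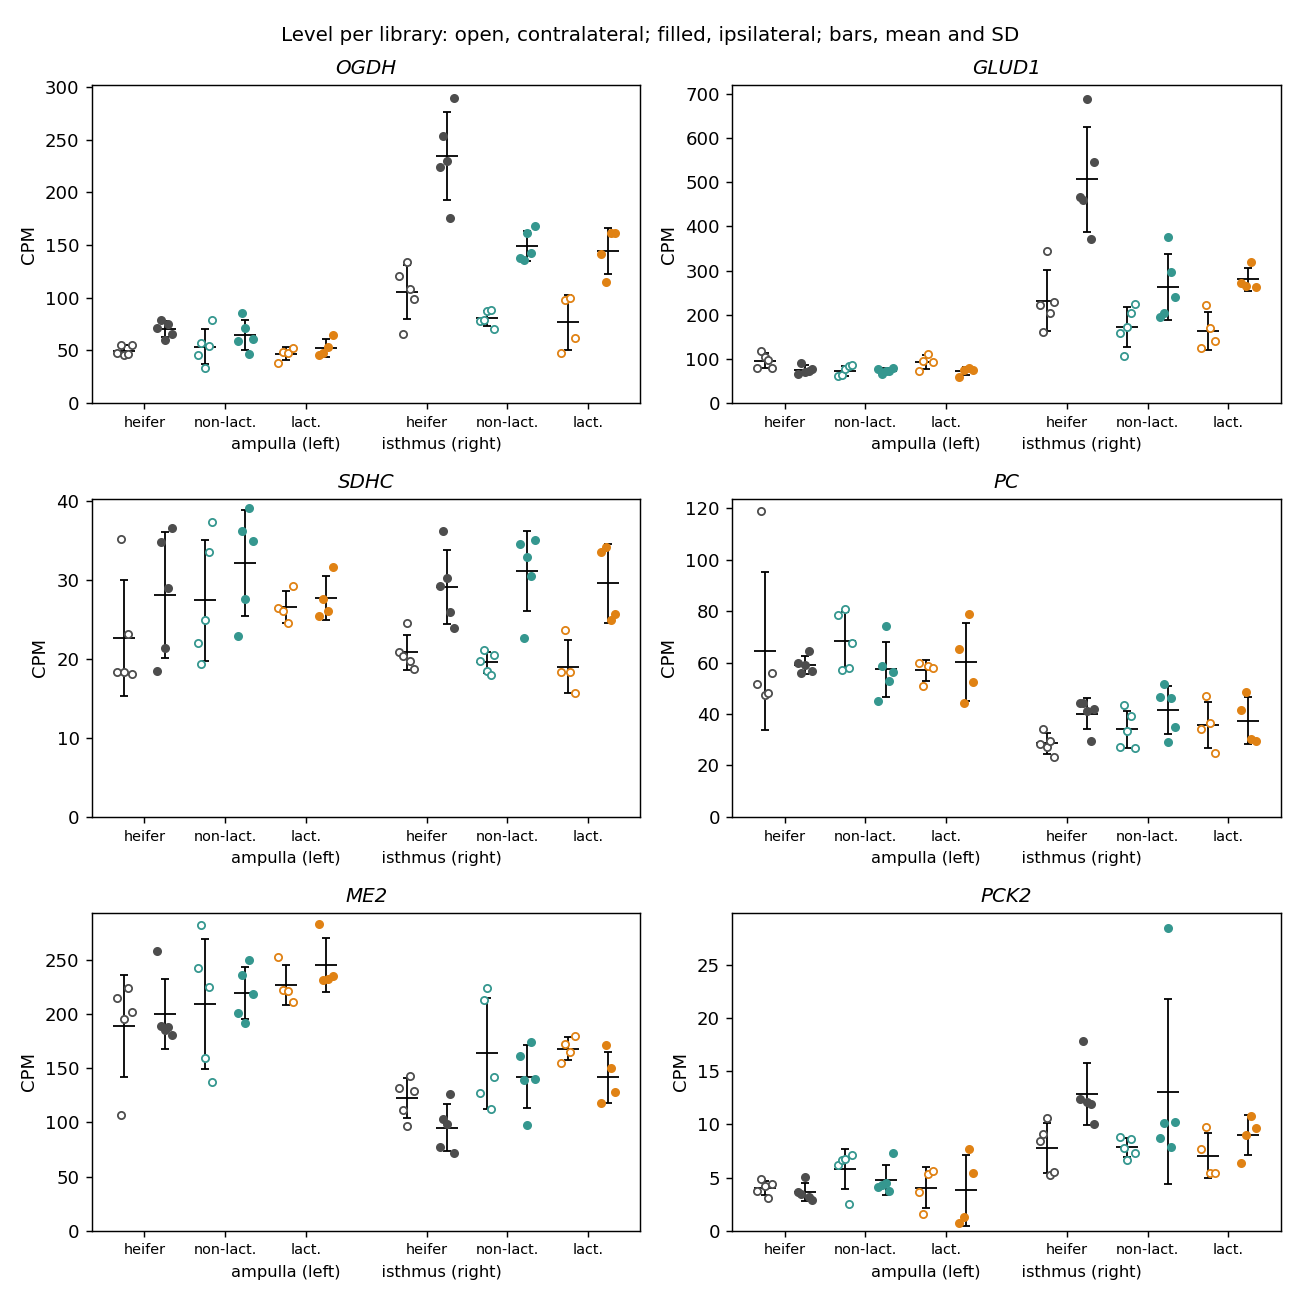
Level (CPM, linear axis from 0) of 6 members in each library, by region and metabolic group, contralateral libraries open and ipsilateral ones filled, with the mean and SD of each condition. OGDH and GLUD1 were highest in the ipsilateral isthmus of heifers, at 176 to 289 and 371 to 689 CPM, whereas PC and ME2 were higher in the ampulla.

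Genes that feed or neighbour the cycle were read from a list of 44 symbols, of which 40 were found. In the isthmus, averaged over groups, 18 of the 38 tested were called, 14 higher and 4 lower ipsilaterally, where 27.2% of all genes were called and 14.3% called higher. Among the largest differences were a fall in PDK4, a kinase that inhibits pyruvate dehydrogenase (log2 fold change -1.10 ± 0.264 SE, 130 against 276 CPM), and rises in MCEE (0.78), of the route from propionyl-CoA to succinyl-CoA, MPC1 (0.72), a subunit of the mitochondrial pyruvate carrier, PDHB (0.56), a subunit of pyruvate dehydrogenase, and SLC25A11 (0.49), the carrier that exchanges malate and alpha-ketoglutarate. Chosen after their values were seen, 4 of the 5 pyruvate dehydrogenase subunits on the list were called higher, namely PDHA1, PDHB, DLAT and DLD, and PDHX was not called. The genes called lower besides PDK4 were PDK1 (-0.30), another kinase of the complex, and PDP1 (-0.23) and PDPR (-0.29), the catalytic and regulatory subunits of its phosphatase. In heifers alone, where 10% of all genes were called, 8 of 37 were called, PDK4 lower (-1.29) and 7 higher, among them MPC1 (1.12), ESRRA (0.80), a nuclear receptor of mitochondrial genes, PDHB (0.75) and MUT (0.60), which makes succinyl-CoA. In the separate fits of non-lactating and lactating cows 0 of 37 were called.

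**Figure D3:**
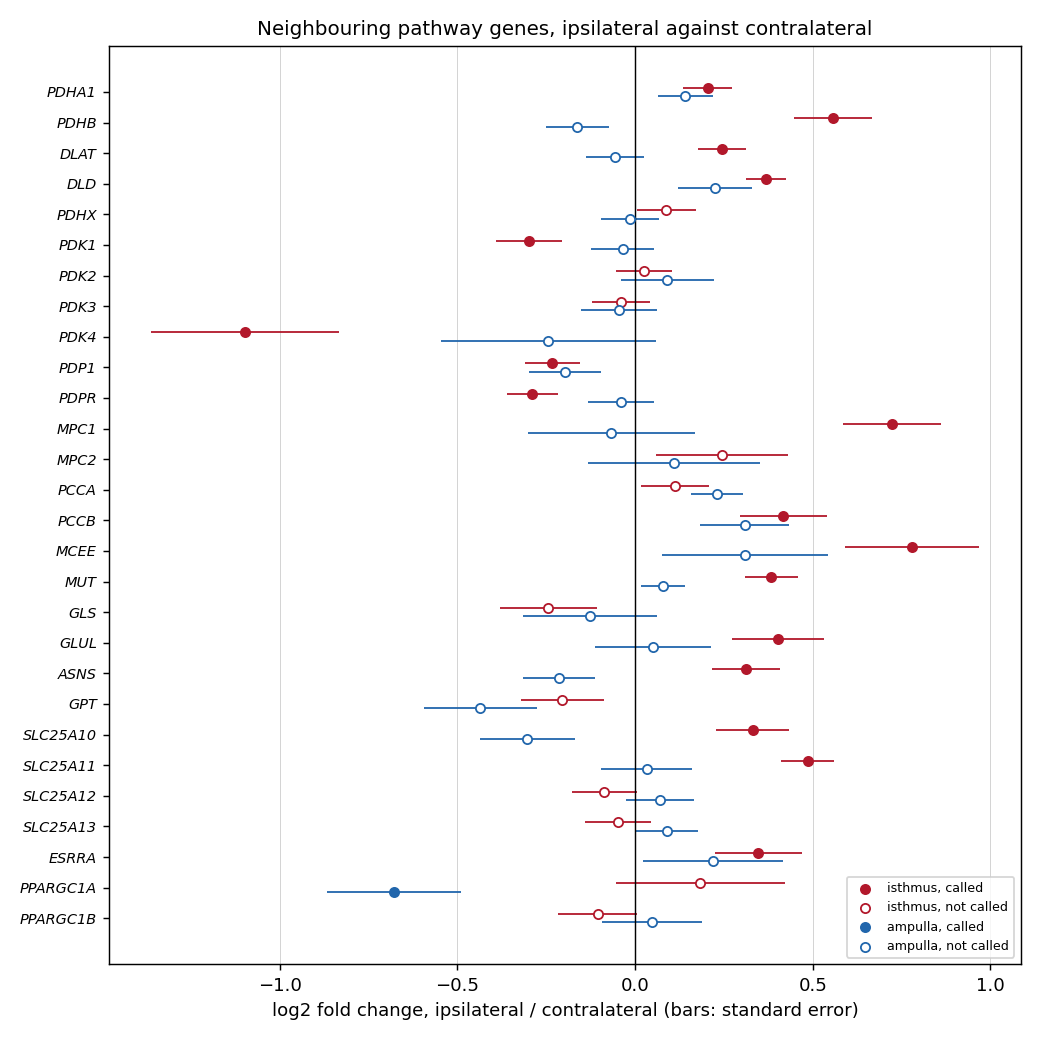
Log2 fold change with its standard error of genes around the cycle that are no members, between the ipsilateral and contralateral side averaged over the 3 metabolic groups, in the isthmus (red) and the ampulla (blue), with filled points called. PDK4 was the lowest in the isthmus at -1.10, and MCEE and MPC1 were the highest at 0.78 and 0.72.

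Some cell type markers were called between the sides of the isthmus, where 27.2% of all genes were called. In the isthmus, averaged over groups, 1 of 14 ciliated markers was called higher and 1 lower (median log2 fold change 0.10), 3 of 7 secretory markers were called higher (median 0.11), and 3 of 6 epithelial markers were called higher and 1 lower (median 0.235). Of the 4 smooth muscle markers tested 1 was called higher (median 0.43), of the 4 endothelial markers 1 was called lower (median -0.48), and of the fibroblast, T cell and macrophage markers 0 were called (medians -0.37, -0.037 and -0.12). The summed ciliated markers ranged from 3690 to 5690 CPM ipsilaterally and from 4240 to 6130 CPM contralaterally, and the summed smooth muscle markers from 37.6 to 132 CPM and from 14.8 to 83.3 CPM. Their part in the side difference of the members was not tested.

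In the ampulla the same comparison called few members. In the separate fits 0 of 26 members were called in heifers, non-lactating cows and lactating cows, where 0%, 0.0947% and 0% of all genes were called. At an unadjusted p under 0.05 were 5, 8 and 2 members, and 9.2%, 11.1% and 4.26% of all genes. DESeq2 called 0 members in each of the 3. The members with the smallest adjusted p were OGDH in heifers (log2 fold change 0.49 ± 0.126 SE, adjusted p = 0.305), GOT2 in non-lactating cows (0.49 ± 0.144 SE, adjusted p = 0.226) and CS in lactating cows (0.43 ± 0.175 SE, adjusted p = 0.999). The next were SUCLA2, SDHB and GPT2 in heifers (0.49, -0.41 and 0.32), ACLY and SUCLA2 in non-lactating cows (0.40 and 0.50), and GLUD1 and SUCLA2 in lactating cows (-0.38 and 0.27).

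Averaged over groups, 1 of 26 members was called in the ampulla, where 4.09% of all genes were called. This was SUCLA2, at 55.2 CPM ipsilaterally and 40.9 CPM contralaterally (log2 fold change 0.42 ± 0.096 SE, adjusted p = 0.0130). By group, its level was 52.7 to 66.9 CPM in heifers (median 54.4), 45.6 to 56.9 CPM in non-lactating cows (median 56.7) and 44.9 to 54.5 CPM in lactating cows (median 53.7) ipsilaterally, and 25.2 to 50.7 CPM (median 44.6), 25.8 to 45.7 CPM (median 38.4) and 37.9 to 49.6 CPM (median 41.5) contralaterally. The sides thus did not overlap in heifers and overlapped in the cows. Paired by the number of their columns, SUCLA2 was higher ipsilaterally in 14 of 14 pairs and GPT2 in 13, of which 4 pairs hold a library that stood apart. Without the 4 ipsilateral ampulla libraries that stood apart, SUCLA2 had an adjusted p of 0.0589 and 0 members were called, whereas with the animal as a block 3 members were called and 5 were called without heifer E, 2 without lactating cow C and 2 without non-lactating cow E. GLUD1 had a log2 fold change of -0.24 ± 0.082 SE (adjusted p = 0.0964). Of the neighbouring genes 1 of 38 was called, PPARGC1A, a coactivator of mitochondrial genes, which fell by 0.68 on the log2 scale ipsilaterally (adjusted p = 0.0390).

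The side effect in the isthmus was set against that in the ampulla in a test of the difference itself, over all 56 libraries. Of 27 members 4 were called, where 4.95% of all genes were called, and for all 4 the isthmus had the more positive side effect. GLUD1 had side effects of 0.82 in the isthmus and -0.24 in the ampulla, and the difference was 1.06 ± 0.154 SE on the log2 scale (adjusted p = 4.51e-05). OGDH had side effects of 0.97 and 0.30 (difference 0.68 ± 0.151 SE, adjusted p = 0.00545). MDH1 had 0.49 and -0.046 (difference 0.54 ± 0.130 SE, adjusted p = 0.0103), and SDHB had 0.38 and -0.15 (difference 0.53 ± 0.143 SE, adjusted p = 0.0216). Without the 4 libraries that stood apart 3 of these were called, SDHB being at an adjusted p of 0.0516, and SDHB was at 0.0688 without heifer E and 0.0507 without non-lactating cow B. For the 23 other members a difference between regions was not shown, and for CS it was 0.029 ± 0.112 SE. Of the neighbouring genes 4 of 38 were called, all with the more positive side effect in the isthmus: PDHB (0.72), SLC25A10 (0.63), the dicarboxylate carrier, ASNS (0.52), which makes asparagine from aspartate, and MUT (0.30).

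In the ampulla, OGDH stood at 74.9, 71.0, 78.5, 59.4 and 65.6 CPM in heifers A to E ipsilaterally and at 55.2, 47.2, 45.5, 46.2 and 54.9 CPM contralaterally. In non-lactating cows A, B, D and E it was 70.9, 58.6, 85.6 and 61.0 CPM, with 46.9 CPM in the library that carried a lactating cow's number, against 32.9, 45.2, 54.4, 57.0 and 78.6 CPM in A to E. In lactating cows A, C and D it was 53.0, 45.5 and 64.2 CPM, with 47.3 CPM in the library that carried a non-lactating cow's number, against 47.8, 48.9, 38.2 and 52.5 CPM in A to D. The sides were apart in heifers and overlapped in the cows.

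GLUD1 in the ampulla stood at 72.7, 65.6, 91.1, 69.9 and 77.6 CPM in heifers A to E ipsilaterally and at 79.3, 78.4, 105, 97.2 and 118 CPM contralaterally. In non-lactating cows A, B, D and E it was 72.2, 77.7, 66.4 and 79.6 CPM, with 72.3 CPM in the library with the lactating cow's number, against 76.2, 60.2, 83.2, 62.6 and 85.1 CPM. In lactating cows A, C and D it was 78.9, 58.6 and 75.3 CPM, with 74.0 CPM in the library with the non-lactating cow's number, against 111, 94.4, 72.4 and 92.3 CPM. The sides overlapped in all 3 groups, and every ampulla library lay below every ipsilateral isthmus library.

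Between regions some members were higher in the isthmus and others in the ampulla. On the ipsilateral side 14 of 27 members were called, 10 higher in the isthmus and 4 lower, where 49.6% of all genes were called, and without the 4 libraries that stood apart 14 were called. On the contralateral side 18 of 27 were called, 9 higher and 9 lower, where 42.5% of all genes were called. The share of members called was 51.9% and 66.7%, the ipsilateral share being near that of all genes. The median log2 fold change of the members was 0.16 and -0.19, beside -0.018 and -0.012 over all genes. Both counts hold ME3, which passed the filter on low counts through the isthmus only and so had to differ. The isthmus had the higher levels of GLUD1, OGDH, PCK2, ME3, IDH1, GOT2, SUCLA2 and ACLY on either side, and the ampulla those of PC, ME2, GPT2 and IDH3A.

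**Figure D4:**
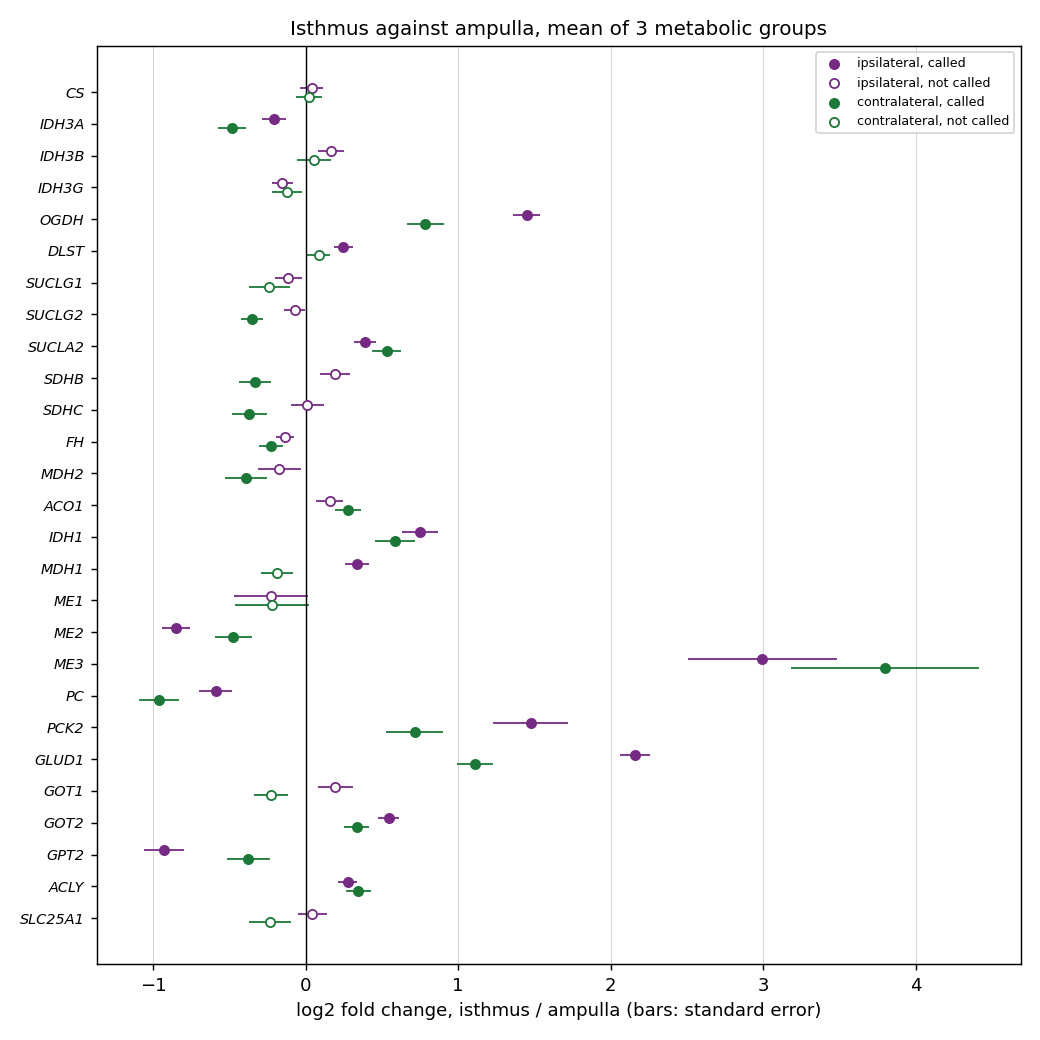
Log2 fold change of each tested member between isthmus and ampulla, averaged over the 3 metabolic groups, with its standard error, on the ipsilateral (purple) and contralateral (green) side, filled points being called. GLUD1 and OGDH lay at 2.16 and 1.45 ipsilaterally and at 1.11 and 0.79 contralaterally, and PC at -0.59 and -0.96. ME3 is drawn as fitted, although it passed the filter through the isthmus only.

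Among the glutamate-linked members, GLUD1 was 355 CPM in the ipsilateral isthmus and 73.7 CPM in the ipsilateral ampulla, a fitted difference of 4.46-fold (log2 fold change 2.16 ± 0.097 SE, adjusted p = 6.31e-16). On the contralateral side the means were 192 and 86.8 CPM (1.11 ± 0.119 SE, adjusted p = 1.39e-08). GOT2 was higher in the isthmus by 0.54 and 0.34 on the log2 scale (adjusted p = 2.27e-07 and 0.00129). GPT2 went the other way, at 55.5 CPM in the isthmus and 105 CPM in the ampulla ipsilaterally (log2 fold change -0.93 ± 0.131 SE, adjusted p = 1.10e-06) and at 61.3 and 80.7 CPM contralaterally (-0.38 ± 0.141 SE, adjusted p = 0.0321). The contralateral call was lost without heifer A or C, lactating cow A or B, or non-lactating cow A or C (adjusted p up to 0.0857). GOT1 was not called on either side, with log2 fold changes of 0.20 and -0.23 (adjusted p = 0.160 and 0.0968).

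Of the cycle enzymes, OGDH had a fitted level 2.73-fold higher in the isthmus ipsilaterally (log2 fold change 1.45 ± 0.087 SE, adjusted p = 2.19e-13) and 1.72-fold higher contralaterally (0.79 ± 0.122 SE, adjusted p = 5.66e-06). Ipsilaterally its isthmus and ampulla libraries did not overlap. SUCLA2 was higher in the isthmus by 0.39 and 0.53 on the log2 scale (adjusted p = 6.10e-05 and 3.65e-05). DLST was called ipsilaterally (0.25, adjusted p = 0.00179) and had a log2 fold change of 0.085 contralaterally (adjusted p = 0.391). IDH3A was lower in the isthmus by 0.21 ipsilaterally and by 0.48 contralaterally (adjusted p = 0.0297 and 1.06e-04), and the ipsilateral value had an adjusted p of 0.129 without the 4 libraries that stood apart and up to 0.0912 without heifer B or C, lactating cow A, B, C or D, or non-lactating cow B.

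On the contralateral side all 4 members between succinate and oxaloacetate were lower in the isthmus than in the ampulla. MDH2 had a log2 fold change of -0.39, SDHC of -0.37, SDHB of -0.33 and FH of -0.23 (adjusted p = 0.0233, 0.0108, 0.00926 and 0.0191). MDH2 had an adjusted p of 0.0626 without heifer E. SUCLG2 was lower too, by 0.35 (adjusted p = 2.07e-04). On the ipsilateral side these 5 were not called, at -0.17, 0.012, 0.19, -0.13 and -0.072. Whether the regional difference depended on the side was tested by the interaction above, in which SDHB alone of the 5 was called. SDHB lost that call without the libraries that stood apart (edgeR, adjusted p = 0.0516) and without heifer E (0.0688). For the others a dependence on the side was not shown.

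PCK2 was higher in the isthmus by 1.48 ± 0.245 SE on the log2 scale ipsilaterally (adjusted p = 1.30e-05) and by 0.71 ± 0.189 SE contralaterally (adjusted p = 0.00298). In the ipsilateral isthmus it stood at 10, 17.8, 12.1, 11.9 and 12.4 CPM in heifers A to E, at 28.5, 8.71, 7.86, 10.1 and 10.2 CPM in non-lactating cows A to E and at 9.04, 10.8, 6.36 and 9.67 CPM in lactating cows A to D. In the contralateral isthmus the levels were 5.53, 8.44, 10.6, 5.24 and 9.12 CPM in heifers, 8.63, 7.77, 7.32, 6.62 and 8.79 CPM in non-lactating cows and 9.78, 5.40, 7.70 and 5.40 CPM in lactating cows. In the ampulla the 28 libraries ranged from 0.748 to 7.72 CPM. Non-lactating cow A stood apart from the others of its group in the ipsilateral isthmus, and the regions overlapped on both sides.

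PC, which makes oxaloacetate from pyruvate, was higher in the ampulla. In the ipsilateral isthmus it stood at 41.8, 44.3, 41.3, 29.4 and 44.3 CPM in heifers A to E, at 29.1, 46.6, 46.2, 51.7 and 34.9 CPM in non-lactating cows A to E and at 48.7, 30.2, 41.5 and 29.5 CPM in lactating cows A to D. Ipsilaterally in the ampulla it was 64.6, 59.7, 55.9, 59.0 and 56.6 CPM in heifers, 74.3, 45.0, 58.9 and 56.3 CPM in non-lactating cows A, B, D and E with 52.9 CPM in the library with the lactating cow's number, and 79.1, 65.3 and 52.3 CPM in lactating cows A, C and D with 44.3 CPM in the library with the non-lactating cow's number. The regions overlapped in the cows and were apart in heifers.

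Contralaterally PC was 23.5, 28.4, 27.1, 29.6 and 34.3 CPM in the isthmus of heifers A to E, 39.1, 43.5, 26.7, 33.6 and 27.3 CPM in non-lactating cows and 46.9, 36.7, 34.2 and 24.9 CPM in lactating cows A to D. In the contralateral ampulla it was 56.1, 51.9, 47.3, 48.1 and 119 CPM in heifers, 81.0, 78.4, 57.9, 57.0 and 67.7 CPM in non-lactating cows and 58.9, 51.1, 60.0 and 58.0 CPM in lactating cows. All contralateral isthmus libraries lay below all contralateral ampulla libraries, PC having been picked by its difference between the regions. The log2 fold change was -0.59 ± 0.106 SE ipsilaterally and -0.96 ± 0.131 SE contralaterally (adjusted p = 4.01e-05 and 7.63e-07).

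The malic enzymes parted by region. ME2, the mitochondrial NAD-dependent form, was 125 CPM in the isthmus and 220 CPM in the ampulla ipsilaterally (log2 fold change -0.85 ± 0.092 SE, adjusted p = 1.34e-08) and 150 and 207 CPM contralaterally (-0.47 ± 0.121 SE, adjusted p = 0.00211). ME3 had 456 counts in the isthmus and 41 in the ampulla, and no test of it is given since it passed the filter through the isthmus only. The cytosolic ME1 was not called, at -0.23 and -0.22 (adjusted p = 0.459 and 0.497).

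ME3 stood at 5.64, 4.54, 5.26, 7.20 and 5.69 CPM in the ipsilateral isthmus of heifers A to E and at 8.64, 2.22, 4.99, 6.04 and 4.80 CPM in their contralateral isthmus. In non-lactating cows A to E it was 3.43, 0.379, 1.48, 0 and 5.10 CPM against 5.76, 0, 5.44, 1.32 and 6.18 CPM, and in lactating cows A to D it was 2.36, 2.11, 1.39 and 0.492 CPM against 5.59, 0.208, 2.14 and 1.41 CPM. In the ampulla it was at 0 in 12 of 28 libraries and reached 6 counts at most, or 1.25 CPM. The heifers were all above the ampulla, whereas several cows were within its range.

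Of the cytosolic members, IDH1 was higher in the isthmus by 0.75 ipsilaterally and 0.58 contralaterally on the log2 scale (adjusted p = 6.34e-06 and 6.11e-04), and ACLY by 0.27 and 0.34 (adjusted p = 7.34e-04 and 0.00118). MDH1 was called ipsilaterally (0.34, adjusted p = 9.00e-04) and was at -0.19 contralaterally (adjusted p = 0.154). ACO1 was called contralaterally (0.28, adjusted p = 0.00739) and was at 0.16 ipsilaterally (adjusted p = 0.135).

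Of the 38 neighbouring genes tested between regions, 14 were called higher and 9 lower in the isthmus ipsilaterally, and 10 higher and 8 lower contralaterally, where 49.6% and 42.5% of all genes were called. The largest differences ipsilaterally were those of PPARGC1A (1.65), GLUL (1.32), the glutamine synthetase, ESRRA (0.74), PDK4 (0.70), SLC25A10 (0.70) and the aspartate-glutamate carrier SLC25A13 (-0.65). Contralaterally they were those of PDK4 (1.57), PCK1 (1.07), the cytosolic phosphoenolpyruvate carboxykinase, ASNS (-0.99), GLUL (0.98), PPARGC1A (0.80) and PDP1 (0.62).

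The ciliated markers moved with the region. Of the 14, 13 were called lower in the isthmus ipsilaterally (median log2 fold change -0.55) and 14 contralaterally (median -0.65). Of all genes 49.6% and 42.5% were called in these comparisons. Their summed level was 3690 to 5690 CPM in the ipsilateral isthmus and 5380 to 8750 CPM in the ipsilateral ampulla, and 4240 to 6130 CPM and 6670 to 9350 CPM contralaterally. Of the 6 epithelial markers 5 and 3 were called higher in the isthmus. Of the 7 secretory markers 3 and 2 were called higher and 1 lower on each side, and of the 4 endothelial markers 3 were called lower on each side (medians -0.99 and -0.86). Of the 4 smooth muscle markers tested 1 was called higher and 3 lower ipsilaterally, and 1 higher and 1 lower contralaterally. Of the fibroblast markers 2 were called higher and 1 lower on each side, and a T cell marker on each side and a macrophage marker ipsilaterally were called lower. The part of these cells in the regional differences was not tested.

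Between metabolic groups no member was called by edgeR in any of the 12 comparisons, 6 on each side. The shares of all genes called were 0% in 11 of them and 0.0073% in the ipsilateral isthmus when non-lactating cows were set against heifers, and at an unadjusted p under 0.05 they were 3.57 to 11.8%. The smallest p were in the ipsilateral isthmus, where OGDH and GLUD1 had lower means in both cow groups than in heifers. Lactating cows against heifers had 8 members at an unadjusted p under 0.05, with 10.4% of all genes there, and non-lactating cows against heifers had 7, with 11.8%. The 2 comparisons share the heifers, and both counts hold ME3, which passed the filter on low counts through the heifers only.

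**Figure D5:**
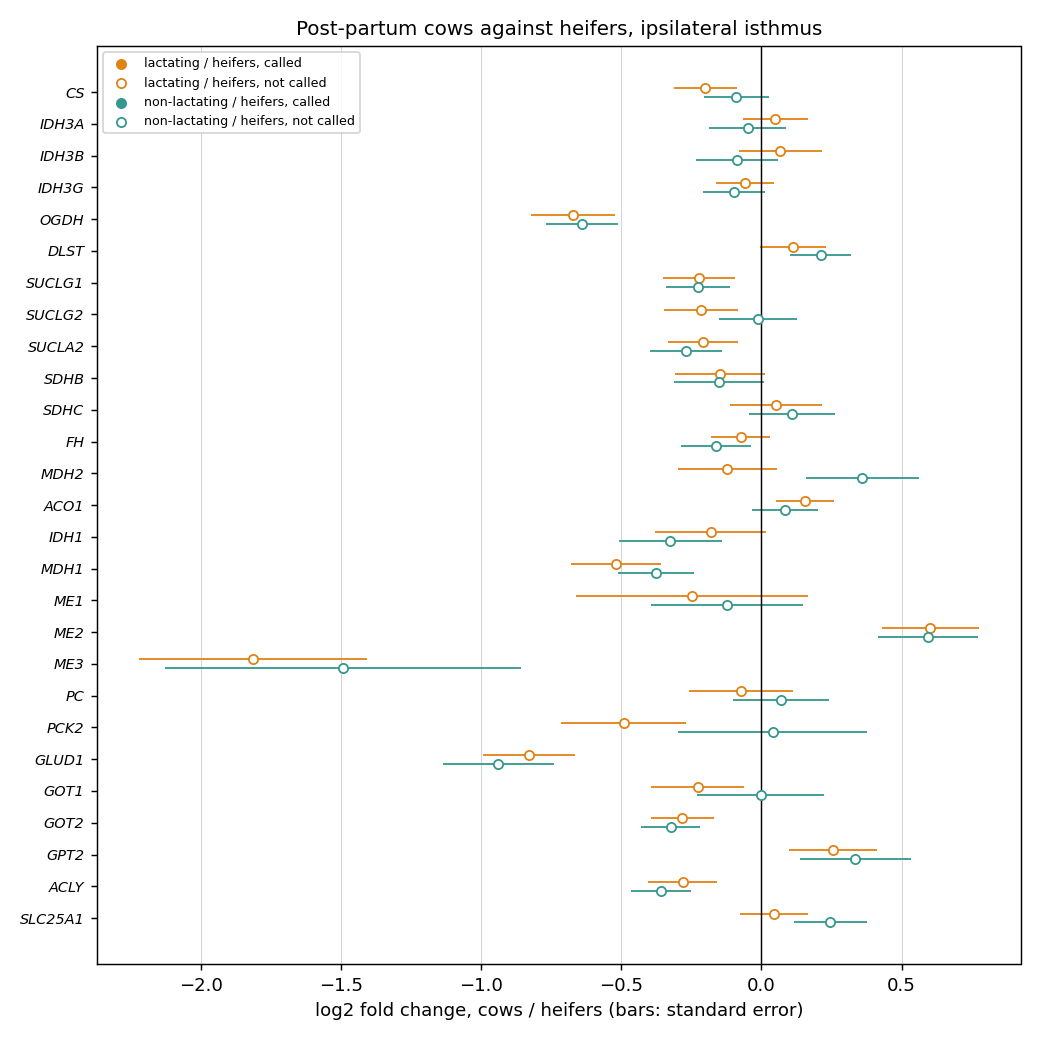
Log2 fold change of each tested member in the ipsilateral isthmus between lactating cows and heifers (orange) and non-lactating cows and heifers (teal), with its standard error. No point is filled since no member was called, and OGDH and GLUD1 lay at -0.67 and -0.83 in lactating cows and at -0.64 and -0.94 in non-lactating cows. ME3 is drawn as fitted, although it passed the filter through the heifers only.

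OGDH in the ipsilateral isthmus was 235 CPM ± 41.3 (SD, n = 5) in heifers, 145 CPM ± 21.9 (SD, n = 4) in lactating cows and 149 CPM ± 14.6 (SD, n = 5) in non-lactating cows. The log2 fold change against heifers was -0.67 ± 0.15 SE in lactating cows (edgeR, adjusted p = 0.253) and -0.64 ± 0.129 SE in non-lactating cows (edgeR, adjusted p = 0.123). The lowest heifer, at 176 CPM, was above the highest cow, at 168 CPM. OGDH and GLUD1 were among the members with the smallest p in these same libraries, so their ranges are no further result. GLUD1 was 507 CPM ± 119 (SD, n = 5), 280 CPM ± 26.4 (SD, n = 4) and 262 CPM ± 74.9 (SD, n = 5), with log2 fold changes of -0.83 ± 0.164 SE and -0.94 ± 0.197 SE (edgeR, adjusted p = 0.244 and 0.126). Lactating cows did not overlap the heifers for GLUD1, whereas a single non-lactating cow, A at 375 CPM, lay above the lowest heifer at 371 CPM. Without that cow GLUD1 was called (edgeR, adjusted p = 0.0414). Of the 10 animals left out in turn this was the only 1 to give a call, and the adjusted p reached 0.268.

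ME3 had 22 to 34 counts in the ipsilateral isthmus of heifers and at most 12 in lactating and 19 in non-lactating cows. No test of it is given, since it passed the filter on low counts through the heifers only. With ME3 left out, the members besides OGDH and GLUD1 at an unadjusted p under 0.05 in both comparisons were MDH1, GOT2, ACLY and ME2. MDH1 (-0.52 and -0.37), GOT2 (-0.28 and -0.32) and ACLY (-0.28 and -0.36) had the lower mean in the cows. ME2 (0.60 and 0.59) had the higher mean in the cows, at 142 CPM in either cow group and 95.2 CPM in heifers. PCK2 was at -0.49 in lactating cows (adjusted p = 0.474). DESeq2 called GLUD1 and OGDH in lactating cows (adjusted p = 0.00181 and 0.0120) and OGDH and GLUD1 in non-lactating cows (adjusted p = 0.00145 and 0.00169), all lower. In lactating cows it called ME3 too, of which no test is given. DESeq2 called 145 and 235 genes in all. Between the cow groups 1 member, MDH2 (-0.48 ± 0.183 SE, adjusted p = 0.798), was at an unadjusted p under 0.05. SUCLG2 and PCK2 followed it at -0.20 and -0.53. The macrophage markers had a median log2 fold change of 1.22 in lactating cows against heifers and -0.255 in non-lactating cows, with 0 of 4 and 0 of 3 called, and their part was not tested.

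In the contralateral isthmus the smallest p between lactating cows and heifers were those of ME2 (log2 fold change 0.47 ± 0.120 SE, adjusted p = 0.372), ACLY (-0.26) and GLUD1 (-0.50). Between non-lactating cows and heifers they were those of OGDH (-0.40 ± 0.162 SE, adjusted p = 0.511), SUCLA2 (-0.26) and ME2 (0.41), and between the cow groups those of MDH1 (-0.33 ± 0.146 SE, adjusted p = 1), SUCLG2 (-0.21) and ME1 (-0.81). The members at an unadjusted p under 0.05 numbered 4, 2 and 1 of 27.

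In the ipsilateral ampulla OGDH (-0.41 ± 0.135 SE, adjusted p = 0.515), ME2 (0.30) and SDHB (0.22) had the smallest p between lactating cows and heifers, and 2 of 26 members were at an unadjusted p under 0.05. The same count was 0 between non-lactating cows and heifers, led by ME1 (-0.86), PCK2 (0.39) and GOT1 (-0.20), and 0 between the cow groups, led by IDH3A (0.26), OGDH (-0.30) and MDH2 (-0.46). These ipsilateral counts include the libraries that stood apart. Without those libraries no member named for these comparisons was called. Over the alternatives MDH2 between the cow groups ranged from -0.778 to -0.453. In the contralateral ampulla the counts were 0, 1 and 2. GOT2 (0.30), IDH3A (0.35) and ME1 (-0.59) led between lactating cows and heifers, GLUD1 (-0.35), IDH1 (-0.37) and ACLY (-0.25) between non-lactating cows and heifers, and GOT2 (0.47), MDH2 (-0.57) and GLUD1 (0.33) between the cow groups. The smallest adjusted p in the ampulla was 0.515, and DESeq2 called 0 members in each of these 9 comparisons.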

How the data were processed

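Total RNA of oviduct epithelium (RNA integrity number of at least 7.9) was sequenced as stranded single-end libraries. Reads were aligned by the authors to the assembly Btau_4.6.1 using TopHat2 2.0.13, and the deposited counts come from HTSeq 0.6.1, by strand and in intersection-strict mode. The table holds whole-number counts of 31903 genes, not normalized, and its 5 summary lines were left out. Of all counted alignments 8.66 to 13.7% lay on genes. Columns were assigned to their group by name, and animals were lettered by the number in it.

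Counts were analysed in R (version 4.3.3) with edgeR (4.0.16, limma 3.58.1), by TMM and filterByExpr with a minimum count of 10. Quasi-likelihood tests were run on the libraries of each comparison, without pairing. The sides and regions came from the same animals, and the main tests treated their libraries as independent. This was a choice, made because the study's methods state no pairing term, and the animal as a block was an alternative. P-values were adjusted by Benjamini-Hochberg over all genes tested and called under 0.05. Comparisons averaged over groups used a mean for each condition. Standard errors are the log2 fold change over the root of F, and log2 CPM used a prior count of 2. The fitting code was tested on simulated data. Alternatives were DESeq2 (1.42.0), RLE size factors, library totals, no filter, all libraries of the region in a fit, the animal as a block, each animal left out, and the 4 doubted libraries left out.

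The number in a column name is the animal's, which the profiles of 4 ipsilateral ampulla columns go against, so pairing and block in the ampulla rest on doubted numbers. Centred on their condition, ipsilateral and contralateral libraries of a number correlated at a median r of 0.39 in the isthmus (14 pairs, -0.043 to 0.55) and 0.22 in the ampulla (14 pairs), over 10616 genes.

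Named were all members called, or the 3 with the smallest p where none was, values in every library for OGDH, ME3, the members called in most of the separate isthmus side fits and the 5 largest differences between regions, and up to 6 neighbouring genes called in a comparison. Members and lists were chosen with earlier results of these data known. Of the listed symbols 3 are not analysed here. A neighbouring gene that the rule would name is not reported here. No sequences or gene lengths of the files' build were at hand, so levels were not compared between genes.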

Additional observations from a re-analysis of the deposited data

Results flagged for a closer look

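The side effect differed between isthmus and ampulla for 4 members in the test of the difference itself, by 1.06 for GLUD1, 0.6757 for OGDH, 0.5358 for MDH1 and 0.5344 for SDHB on the log2 scale (edgeR, adjusted p = 4.51e-05, 0.00545, 0.0103 and 0.0216).

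Single libraries stood apart from the rest of their group in 7 of 60 groups tested by Dixon's criterion, which chance alone meets in about 1 of 20 groups. PCK2 was 28.5 CPM in the ipsilateral isthmus of non-lactating cow A, where the other cows had 7.86 to 10.2 CPM. It was 7.26 CPM in the ipsilateral ampulla of non-lactating cow E (others 3.78 to 4.45 CPM) and 2.53 CPM in the contralateral ampulla of non-lactating cow C (others 6.14 to 7.16 CPM). PC was 119 CPM in the contralateral ampulla of heifer E (others 47.3 to 56.1 CPM) and 29.4 CPM in the ipsilateral isthmus of heifer D (others 41.3 to 44.3 CPM). GLUD1 was 320 CPM in the ipsilateral isthmus of lactating cow B (others 264 to 271 CPM). ME3 was 0.518 CPM, from 3 counts, in the contralateral ampulla of lactating cow A and at 0 in the other 3 cows, so that any count above 0 would have stood apart.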

How the results depend on the processing

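No called result changed direction under any alternative run. In the ipsilateral ampulla OGDH, not called when non-lactating cows were set against heifers, ranged from -0.121 to 0.0673 on the log2 scale. The count of members called between sides of the isthmus, 19 averaged over groups, was 16 to 21 with each animal left out and 22 with the animal as a block. In heifers the 6 calls were 10 with the block and 3 to 7 with an animal left out. In non-lactating cows the 3 calls were 6 with DESeq2, 6 with all isthmus libraries in a fit and 1 to 2 with an animal left out. In lactating cows the 0 calls were 4 with DESeq2, 2 with the block and 3 with all isthmus libraries. In the ampulla, averaged over groups, the single call became 3 with library totals, 2 with DESeq2, 3 with the block, 0 without the 4 doubted libraries and 1 to 5 with an animal left out. Against heifers in the ipsilateral isthmus, DESeq2 called 3 members, ME3 among them, in lactating cows and 2 in non-lactating cows, where leaving out an animal gave 0 to 1. The block moved no other count by over 1.5 times. Why these counts moved was not tested, and the share of all genes called under each alternative is not given beside them. With 4 or 5 animals a group, and counts of at most 34 for ME3 and 4 for OGDHL, small differences could not be detected.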
